A study of Mus musculus with 4 samples.

Results

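The genes described here sense retinoic acid, take part in its synthesis and clearance, or respond to it; retinoic acid was the signal given to these mice to start meiosis. They are 10 genes chosen by name: the retinoic acid receptors Rara, Rarb and Rarg, the retinoid X receptors Rxra, Rxrb and Rxrg, the enzyme genes Rdh10, Cyp26a1 and Cyp26b1, and the target gene Stra8. All 10 were found among the 21883 protein-coding genes of the RefSeq table for GRCm38.p6. A gene's peaks are those whose nearest edge lay within 5 kb of either end of the gene. By that rule they held 9 of the 5123 peaks of INO80 replicate 1 and 10 of the 7836 peaks of replicate 2.

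INO80 is the ATPase of a chromatin remodelling complex that moves nucleosomes, and its binding was measured by chromatin immunoprecipitation and sequencing (ChIP-seq). Spermatocytes came from the testes of DBA/2J x C57BL/6J F1 mice. All mice were given fertilysin, an inhibitor of retinoic acid synthesis, daily for 7 days starting at 2 dpp, then retinoic acid at 9 dpp, where dpp counts days from birth. Cells were taken 8 days after retinoic acid, at early zygotene, the stage of meiotic prophase when homologous chromosomes begin to pair, and were enriched on a 28% Percoll gradient. The series has 2 INO80 libraries and 2 input libraries, all from cells treated in this way, so no sample without retinoic acid was available for comparison. The INO80 libraries had about 98100000 and 82600000 uniquely mapped reads, and the inputs about 70400000 and 39600000, from rounded deposited values. The replicates' peak names carry different dates, and what those dates mark is not stated. The labels do not say how many animals each library held, so the spread between replicates may be partly technical. Peaks were called by the authors separately in each INO80 replicate, and their fold enrichment is the authors' own value per peak. It describes peaks and ranks them within a list. The authors' reproducible set holds 2847 peaks made from both replicates at an irreproducible discovery rate below 0.05, according to its title.

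Retinol dehydrogenases such as Rdh10 start the conversion of vitamin A to retinoic acid, and the Cyp26 enzymes break retinoic acid down. The acid binds RAR receptors, which pair with RXR receptors on direct repeats of a short motif and switch nearby genes on or off. Rarb and Cyp26a1 are classical targets of these receptors, so the pathway feeds back on itself. In the testis, retinoic acid induces Stra8, which germ cells need to enter meiosis.

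Promoter sequences of 9 of the 10 genes were in the RefSeq table for GRCm38.p6, as windows from 250 bases before to 50 after each start site. Rdh10 had no entry. The sequences below are the 250 bases before the start sites of Rarb and Cyp26a1, which lay under INO80 peaks and hold the pathway's own response element, and of Stra8, where no peak was called. Capitals in Rarb and Cyp26a1 mark a DR5, a direct repeat of a receptor hexamer with 5 bases between the copies; the hexamer was AGGTCA, its variant GGGTCA, its variant AGTTCA, or its variant GGTTCA. In Cyp26a1 it is read on the opposite strand. Capitals in Stra8 mark the single hexamer AGGTCA. The windows are chr14:16575477-16575726 on the minus strand (Rarb), chr19:37697558-37697807 on the plus strand (Cyp26a1) and chr6:34920698-34920947 on the plus strand (Stra8).
Rarb: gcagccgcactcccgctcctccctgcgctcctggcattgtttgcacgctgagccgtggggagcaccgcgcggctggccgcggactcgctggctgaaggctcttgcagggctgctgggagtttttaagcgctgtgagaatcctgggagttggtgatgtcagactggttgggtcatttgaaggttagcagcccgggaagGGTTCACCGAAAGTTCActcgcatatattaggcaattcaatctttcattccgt
Cyp26a1: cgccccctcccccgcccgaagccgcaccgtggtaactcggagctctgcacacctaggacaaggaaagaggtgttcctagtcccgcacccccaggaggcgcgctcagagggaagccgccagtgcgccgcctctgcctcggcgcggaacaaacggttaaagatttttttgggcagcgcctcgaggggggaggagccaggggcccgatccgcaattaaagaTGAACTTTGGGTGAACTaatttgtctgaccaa
Stra8: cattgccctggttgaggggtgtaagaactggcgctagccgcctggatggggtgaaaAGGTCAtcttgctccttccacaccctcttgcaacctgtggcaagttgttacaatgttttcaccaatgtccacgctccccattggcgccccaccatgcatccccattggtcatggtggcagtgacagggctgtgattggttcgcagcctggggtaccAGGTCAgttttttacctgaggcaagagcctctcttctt

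INO80 lay at most of these genes. A peak was called within 5 kb in both replicates at 8 of the 10, against 24.0% of all protein-coding genes (5254 of 21883, 95% Clopper-Pearson interval 23.4 to 24.6, counting error only). In replicate 1 alone the count was 8 of 10, against 26.0% of all genes, and in replicate 2 alone it was 8 of 10, against 35.7%. The same 8 genes were called in each replicate, and Rxrg and Stra8 were called in neither. The reproducible set named 6 of the 10 as nearest gene, namely Rara, Rarg, Rxra, Rdh10, Cyp26a1 and Cyp26b1, against 11.7% of all protein-coding genes. At a −log10 q of at least 5 the count in both replicates was 4 of 10 (Rara, Rarg, Rdh10 and Cyp26a1), against 10.6% of all genes. These counts carry no test, because the genes were chosen by name with earlier results of these data known. Long genes were called more often, with 39.1% called in both replicates in the top length quintile of all genes (57142 bp or more). Of the 10 genes, only Rarb (651493 bp) and Rxra (86875 bp) were that long. When the distance was taken from start sites only, 7 of the 9 genes with a start site in the promoter table were called in both replicates, against 20.1% of all genes in that table.

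The strongest fold at these genes was close to that of all genes called in both replicates. Over the 8 genes called in both replicates, the strongest peak's fold ran over 2.73 to 4.11 in replicate 1 and 3.08 to 5.84 in replicate 2. The median of the replicate means was 3.94, beside 3.84 over all 5254 genes called in both replicates. Against the full peak lists these peaks stood higher, but that comparison is unlike. The lists hold every peak, also those called in a single replicate, whereas these are the strongest peaks of genes called in both. Such a choice by itself raises the fold above the list median. Of the 8, 5 stood above the median fold of all replicate 1 peaks (3.23) and 7 above that of all replicate 2 peaks (3.59). Their median fold was 3.41 in replicate 1, below the upper quartile of that list (3.83). In replicate 2 it was 4.89, above the upper quartile (4.68). By mean fold the order was Rdh10, Rara, Cyp26a1, Rarg, Rarb, Rxra, Cyp26b1 and Rxrb. The 8 means ran over 3.25 to 4.93 with SDs of 0.242 to 1.72 (n = 2), and each neighbour in this order differed by less than the larger of the SDs on either side. Folds were higher in replicate 2 across all overlapping peak pairs (median ratio 1.29). These SDs include that shift, so they do not measure how certain the order is. At Rxrb the strongest peaks of the replicates were not the same peak, as described below.

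**Figure D1:**
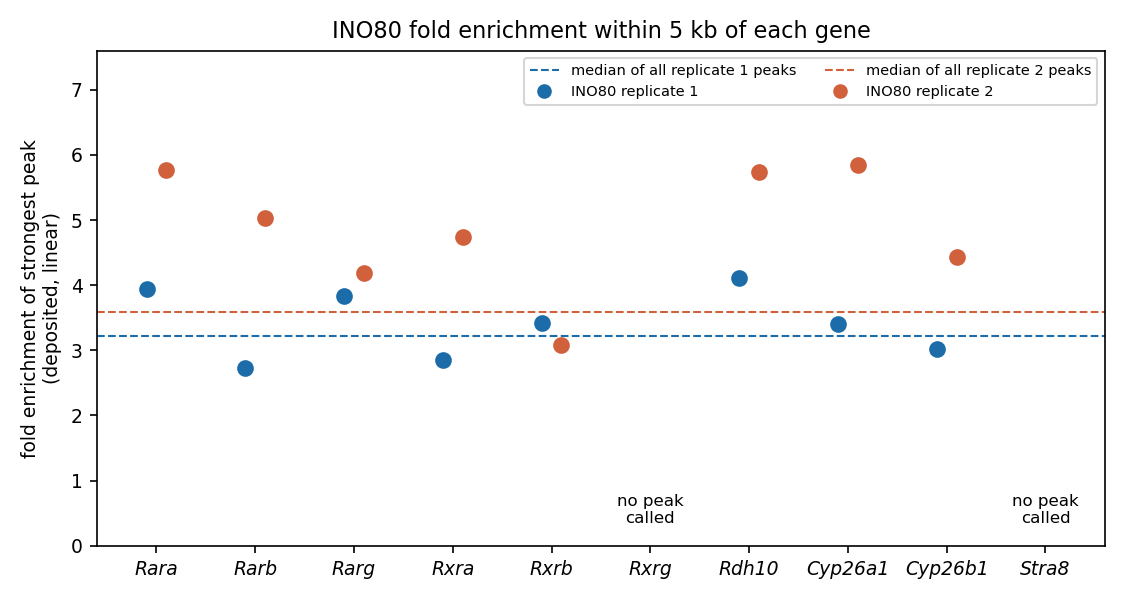
Deposited fold enrichment (linear scale) of the strongest INO80 peak within 5 kb of each gene, with a point for each replicate and dashed lines at the median of all peaks in that replicate (3.23 and 3.59). Replicate 2 is higher at 7 of the 8 genes with peaks, Rxrb being the exception, and Rxrg and Stra8 have no peak.

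Among the receptors that bind retinoic acid itself, Rara is the form germ cells and Sertoli cells are best known to depend on. Its strongest peak had a fold of 3.94 in replicate 1 and 5.76 in replicate 2, a mean of 4.85 ± 1.29 (SD, n = 2). In replicate 1 it spanned chromosome 11, 98937658 to 98938400, and 22.0% of that list had a higher fold. In replicate 2 it spanned 98937569 to 98938604, and 12.0% of that list stood higher. Both peaks covered the pair of Rara start sites at 98937696 and 98937718. No peak in either replicate overlapped the windows of the start sites farther into the gene, at 98939711 and 98964872. In replicates 1 and 2 the peak centres lay 311 and 368 bp downstream of the site at 98937718. The reproducible peak (98936366 to 98938619) reached farther upstream than either replicate's peak. The authors placed it in the promoter, centred at -204 bp from the start site, and Gm46294 also lies at this peak in the gene table.

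Rarg encodes the receptor form that retinoic acid acts through in spermatogonia. Its fold was 3.83 in replicate 1 and 4.19 in replicate 2, so this receptor's replicates lay close together (mean 4.01 ± 0.255, SD, n = 2). The peak sat at the inner of the gene's start sites in the table, at 102246500 on chromosome 15, and spanned 102246341 to 102247502 in replicate 1 and 102246099 to 102247832 in replicate 2. The outer start site, at 102257522, had no peak in either replicate. The gene lies on the minus strand, and the peak centres were at -421 and -465 bp from the inner site. In the reproducible set the authors placed the peak (102245373 to 102247845) in the promoter of the transcript that starts there.

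Rarb is the receptor gene that retinoic acid itself induces in many tissues. Its fold was 2.73 in replicate 1, where 84.0% of the list was higher, and 5.04 in replicate 2, where 20.0% was higher. Replicates differed most among the 3 RAR genes here, with a replicate 2 over replicate 1 ratio of 1.85 against a median of 1.29 (quartiles 1.12 and 1.49) over all 4723 overlapping peak pairs. Both peaks covered the start site at 16575476 on chromosome 14, from -265 to 268 bp in replicate 1 and from -398 to 594 bp in replicate 2, counted along the gene. The reproducible set has no peak at Rarb. Its −log10 q of 2.05 in replicate 1 was the lowest among the peaks within 5 kb of the 10 genes. The gene lies on the minus strand and spans 651493 bp, from 16430839 to 17082331, so the start site at 16575476 lies inside it. The outer end, at 17082331, has no window in the promoter table. Peaks at the inner start site were the only ones called within 5 kb of the gene.

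The retinoid X receptors are the shared partners of RARs and of several other nuclear receptors. At Rxra the fold was 2.84 in replicate 1 and 4.74 in replicate 2, and the width was 450 bp in replicate 1 and 2103 bp in replicate 2. Replicate 2 peaks were wider in general, with a median width ratio of 1.63 over all overlapping peak pairs, against 4.67 at Rxra. The wide replicate 2 peak (chromosome 2, 27676175 to 27678277) covered the first start site at 27677201, whereas the narrow replicate 1 peak (27677540 to 27677989) lay 339 to 788 bp downstream of it. The authors placed the reproducible peak in the first intron, centred 424 bp downstream.

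At Rxrb the peak over the start site at 34031812 on chromosome 17 was narrow. Its fold was 3.42 over 600 bp in replicate 1 and 2.91 over 366 bp in replicate 2, and 99.4% of replicate 2 peaks were wider. It was the only overlapping pair at these genes with a lower fold in replicate 2 than in replicate 1. The zinc transporter gene Slc39a7 also reaches into this peak in the gene table, so the peak cannot be given to Rxrb alone. A further replicate 2 peak 3.66 kb away (fold 3.08) lay at the start of H2-Ke6, a steroid dehydrogenase gene, and had no partner in replicate 1. No peak of the reproducible set was assigned to Rxrb.

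Rxrg had no peak within 10 kb in either list. It has 2 start sites in the promoter table, at 167598362 and 167618265 on chromosome 1.

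**Figure D2:**
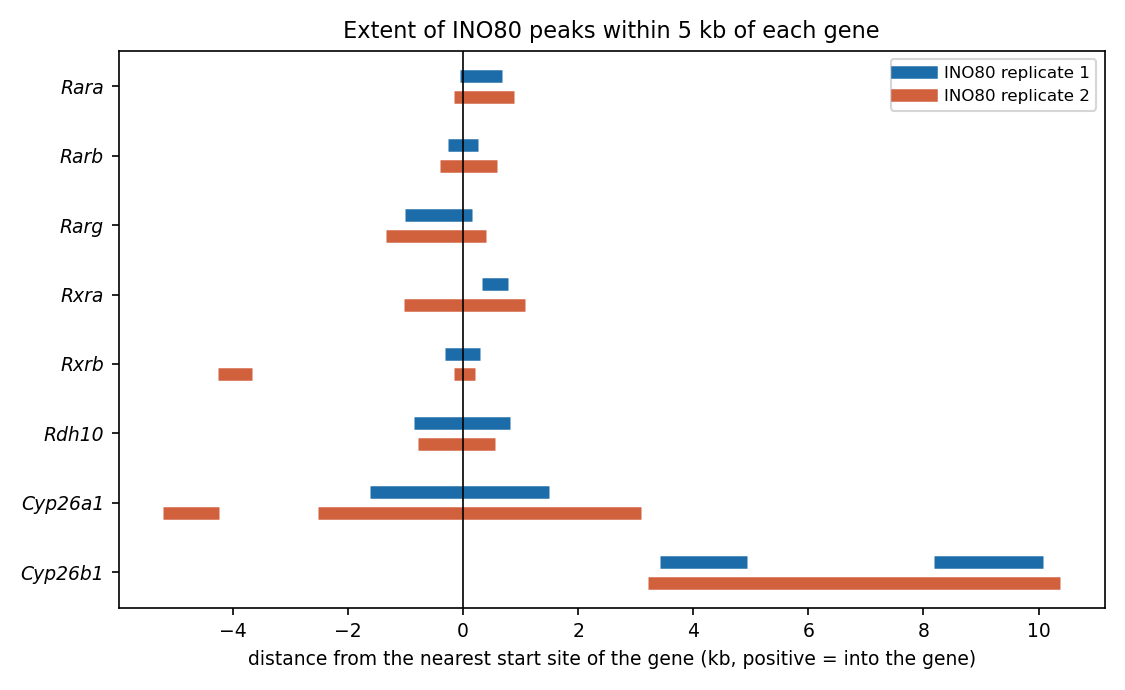
Extent of each INO80 peak within 5 kb of the 8 genes that have one, in kb from the nearest start site of that gene (positive into the gene), with replicate 1 above replicate 2. At 7 genes each replicate has a peak that covers a start site or lies within 339 bp of it, with a further replicate 2 peak upstream at Rxrb and at Cyp26a1, whereas the peaks at Cyp26b1 begin over 3 kb into the gene, and the longest stretches are at the Cyp26 genes.

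Rdh10, which makes the retinaldehyde that is oxidised to retinoic acid, had the highest mean fold of the 10 genes (4.93 ± 1.15, SD, n = 2). The fold was 4.11 in replicate 1 and 5.74 in replicate 2, with 18.6% and 12.2% of those lists higher. Peaks spanned chromosome 1, 16105036 to 16106702 in replicate 1 and 16105092 to 16106430 in replicate 2, and lay on both sides of the start site. In the reproducible set the authors placed the peak in the promoter, centred at -103 bp from the start site.

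The genes of the clearing enzymes had the most sequence under INO80 peaks. At Cyp26a1 a peak of 3120 bp in replicate 1 (fold 3.41) and 5616 bp in replicate 2 (fold 5.84) covered the start site at 37697808 on chromosome 19. Only 0.937% of replicate 1 peaks and 0.689% of replicate 2 peaks were wider. The gene is 3799 bp long, and the replicate 2 peak (37695289 to 37700904) ran from -2519 to 3096 bp around the start site. In the reproducible set, where the peak spanned 5636 bp and was classed as exon, 1.79% of peaks were wider. A separate replicate 2 peak 4.17 kb upstream of the gene (fold 4.78) lay over the end of Cyp26c1, the neighbouring gene for another enzyme of this family, and had no partner in replicate 1.

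At Cyp26b1, the form that protects fetal germ cells of the testis from retinoic acid, the called peaks lay inside the gene. None was called over its start site, where weaker binding was not detectable. Replicate 2 had a single region of 7158 bp (chromosome 6, 84583440 to 84590597, fold 4.43), the 14th widest of its 7836 peaks. Replicate 1 had 2 peaks under it, of 1893 bp (fold 2.96) and 1517 bp (fold 3.02). The region began 3213 bp downstream of the start site at 84593810 and ended 10370 bp downstream of it in replicate 2. The authors placed the reproducible peak (84583403 to 84590827) in the second intron, centred 6695 bp from the start site, and 0.386% of reproducible peaks were wider. In sum, peaks within 5 kb covered 3120 bp at Cyp26a1 and 3410 bp at Cyp26b1 in replicate 1, against 450 to 1667 bp at the receptors and Rdh10. In replicate 2 they covered 6583 and 7158 bp, against 971 to 2103 bp at the others. Single peaks overlapped in width, since the Rdh10 peak of replicate 1 (1667 bp) was wider than the smaller Cyp26b1 peak (1517 bp). The fold did not separate the enzymes from the receptors.

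**Figure D3:**
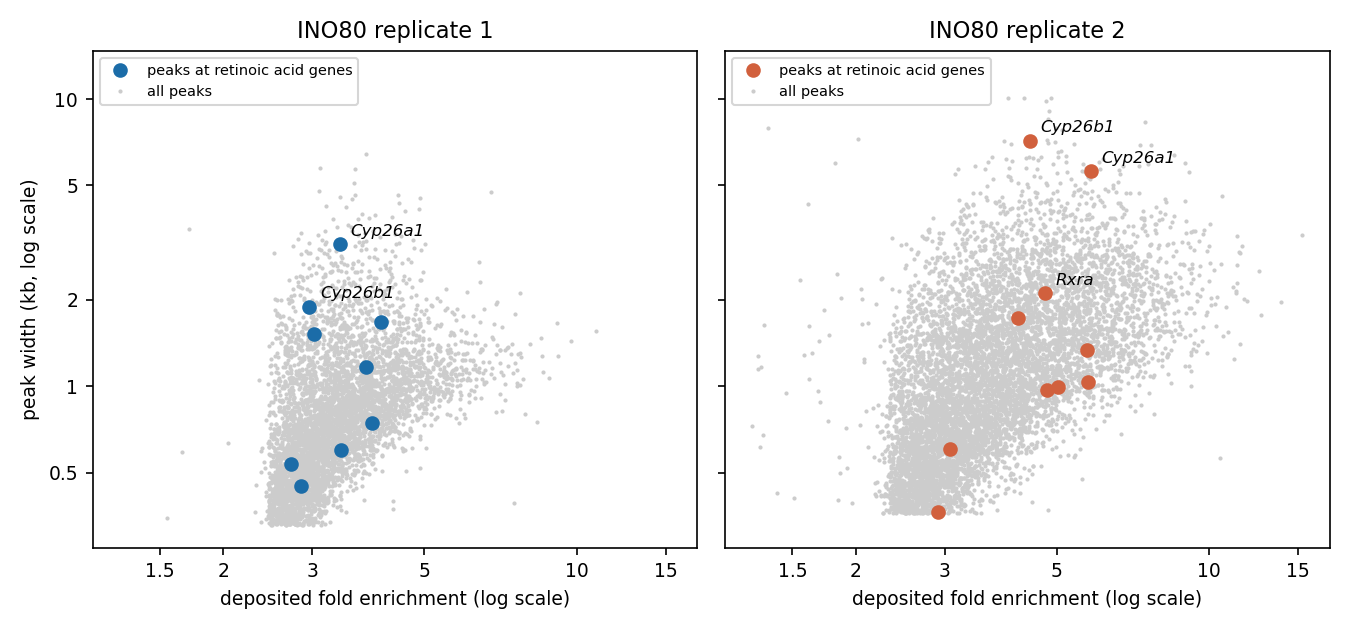
Width (kb) against deposited fold enrichment, both on log scales, for all peaks (grey) and the peaks within 5 kb of the retinoic acid genes (coloured) in each INO80 replicate. The Cyp26a1 peak (3120 bp in replicate 1, 5616 bp in replicate 2) and the Cyp26b1 region (7158 bp in replicate 2) lie near the upper edge of the cloud, and the other peaks lie within it.

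Stra8, the gate of meiotic entry, had no INO80 peak within 5 kb in either replicate. The nearest was a replicate 2 peak 9.29 kb upstream (fold 2.98), 228 bp from a start site of Wdr91, with no partner in replicate 1. Lists of called peaks do not give the signal below the caller's threshold, so weaker INO80 binding at Stra8 or Rxrg was not detectable here. Close to but outside the 5 kb limit lay a peak at the connexin gene Gjd3, 7096 bp beyond Rara in replicate 1 and 6197 bp in replicate 2 (folds 5.37 and 7.02), and the peak of the Polycomb gene Ring1, 6.47 and 6.38 kb from Rxrb (folds 4.68 and 5.70). Replicate 2 also had peaks 6.62 and 9.84 kb from Cyp26a1 (folds 2.82 and 4.10), both at Cyp26c1, and 9.54 kb from Rarg at Itgb7 (fold 3.49). Of these, only the peak at 9.84 kb overlapped a replicate 1 peak. Just inside the 5 kb limit were the H2-Ke6 peak near Rxrb at 3.66 kb and the Cyp26c1 peak near Cyp26a1 at 4.17 kb.

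The genes were then compared by what the rule did not use, the sequence at their start sites. The number of CpG dinucleotides observed over that expected from the C and G content was computed in each 300-base window. The 9 genes with an entry had 16 windows, with a median ratio of 0.553, beside 0.567 over all 21262 windows of protein-coding genes. Windows of 1 gene can overlap, as the first pair at Rara does. The 6 member windows under a peak in both replicates, at 5 genes, had ratios of 0.504 to 1.05, and 5 of these were at 0.6 or more. The 8 windows with no peak in either replicate had ratios of 0.0459 to 0.602, and 1 of these reached 0.6. Across all windows, a peak in both replicates was found at 24.9% of those at 0.6 or more and at 2.63% of those below.

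At Rara, Rarg and Rxra, the start sites under a peak had more CpG than those without, whereas at Rxrb both sites were high (1.05 and 0.936) and under a peak in at least 1 replicate. At Rara the pair with a peak had ratios of 0.609 and 0.606, and the sites without had 0.198 and 0.239. At Rarg the site with the peak had 0.504, against 0.335 at the outer site. Rxra had 1.08 at the first site, under the replicate 2 peak only, and 0.0459 at the second. The Stra8 window had 0.430 and the Cyp26b1 window 0.314, a range in which 8.93% (0.4 to 0.6) and 1.12% (0.2 to 0.4) of all windows lay under a peak in both replicates. The first Rxrg window, at 0.602, had no peak, whereas its class (0.6 to 0.8) had one in 20.4% of windows. Among genes with a window at 0.6 or more, 36.5% of all protein-coding genes had a peak within 5 kb in both replicates, and of genes with all windows below it 10.1% did. How far CpG content accounts for the peaks at the retinoic acid genes was not tested.

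**Figure D4:**
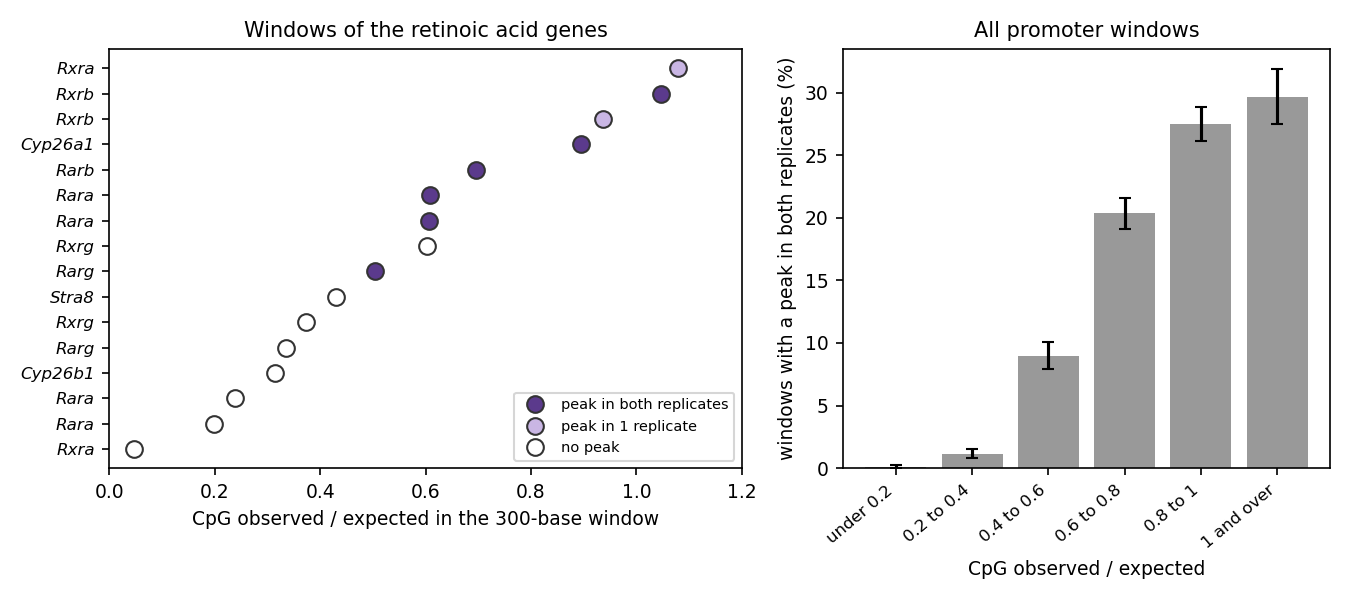
Left, CpG observed over expected in each of the 16 promoter windows of the retinoic acid genes, a point per window, dark where both replicates had a peak over it, pale where 1 had and white where none had. Right, share of all promoter windows under a peak in both replicates by CpG class, with 95% Clopper-Pearson intervals, which rises to 29.7% in the class of 1 and over. The 6 windows of the retinoic acid genes under a peak in both replicates lie between 0.504 and 1.05, and the 8 without a peak between 0.0459 and 0.602.

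The response elements shown in capitals above were rare. A DR5, searched on both strands in the forms given there, was found in 17 of 21262 windows (0.08%), and 2 of these were at the genes described here, Rarb and Cyp26a1. In Rarb it reads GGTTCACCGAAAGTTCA, from 53 to 37 bases before the start site, and in Cyp26a1 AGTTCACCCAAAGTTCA, from 32 to 16 bases before it. Both windows lay under INO80 peaks in both replicates. Of the 2820 windows under a peak in both replicates, 3 held a DR5 (0.106%): those of Rarb, Cyp26a1 and Syndig1, a gene named after its values were seen. DR2 and DR1, the same hexamers with 2 bases or 1 base between them, were in 0.0894% and 0.183% of all windows and in none of the 16 member windows. The hexamer AGGTCA alone, on either strand, was in 14.7% of all windows and 9.29% of those under a peak in both replicates. It was in 5 member windows, 1 of them at Stra8, which has 2 copies, and none of these 5 lay under a peak in both replicates. The GC box GGGCGG was in 9 of the 16 member windows and in 4 of the 6 under a peak in both replicates, against 46.2% of all windows and 76.2% of those under a peak in both replicates. Both overlapping Rara windows are among those 4 and hold the same GC boxes, so these are counted more than once. The core GCCATNTT of YY1, a DNA-binding partner of the INO80 complex, was in 6.37% of all windows, 6.45% of those under a peak in both replicates, and among the members in the first Rxrb window only. A match is a run of letters and does not show that a factor binds there.

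The other genes of the pathway, in 8 lists by role, were called at a lower share than the 10 genes and above the share of all genes. Of 76 genes, 38 (50.0%) had a peak within 5 kb in both replicates, 9 in 1 replicate only and 29 in neither, against 24.0% of all protein-coding genes called in both. Their median mean fold was 3.76, beside 3.84 over all called genes. Proteins that bind or clear retinoic acid had 3 of 4 called. Crabp1, a cytosolic retinoic acid carrier, had folds of 3.93 and 5.49 in replicates 1 and 2, and Fabp5, which also carries it, had 3.04 and 3.87. The strongest peak near Cyp26c1 was the Cyp26a1 peak already described. Cyp26c1 also had a peak of its own, centred 1325 bp downstream of its start site in replicate 2 (fold 4.10), which overlapped a replicate 1 peak and was assigned to Cyp26c1 by the authors in the reproducible set. Crabp2 had none.

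Among genes of retinoic acid synthesis and its control, 5 of 13 were called. Aldh1a2 and Aldh1a3, which make the acid from retinaldehyde, had folds of 3.21 and 4.31 and of 2.48 and 4.68. Dhrs3, which turns retinaldehyde back to retinol, had 3.04 and 3.63, and the peak near the retinol dehydrogenase gene Rdh5 (2.98 and 3.61) was centred 797 bp from a start site of Cd63. Adh1 and Adh4, alcohol dehydrogenases, had none. Of 7 genes of retinoid transport and storage 3 were called. Rbp4, the retinol carrier of blood, had 3.05 and 3.99, and Lrat, which stores retinol as esters, had 2.53 and 4.38. The peak near Stra6l (4.35 and 5.42) was assigned by the authors to Igfbpl1, and Rbp2, an intestinal retinol carrier, had none.

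RXR partner receptors had 6 of 13 called. The orphan receptors Nr4a2 (4.41 and 6.02) and Nr4a1 (4.01 and 5.29) were strongest, ahead of the fatty acid sensor Ppara (3.52 and 3.71). The peak near the oxysterol receptor gene Nr1h3 (2.74 and 4.50) lay 298 bp from a start site of Madd, and Nr1h4 and Nr1i2 had none. Orphan receptors that bind direct repeats had 4 of 6, namely Nr2c1 (3.37 and 4.83), Nr2f2 (3.50 and 4.38), Nr2f1 (3.04 and 4.59) and Nr2f6 (3.07 and 4.45), without Hnf4a and Nr2c2. Receptor coactivators and corepressors had 8 of 12. Tbl1xr1 (5.03 and 6.58) and Tbl1x (4.84 and 5.15), subunits of the corepressor complexes, were strongest, and the coactivator Ncoa2 had 3.34 and 4.32. Hdac3, the deacetylase of the same corepressor complexes, was the only one with no peak in either replicate.

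Genes of germ cell entry into meiosis had 6 of 12 called. Kit, the stem cell factor receptor of differentiating spermatogonia, had 4.81 and 7.22, and Dmrt1, which holds germ cells back from meiosis, had 3.83 and 5.54. Sall4, a spermatogonial factor, had 3.73 and 4.96. The peak near Bhmg1 (4.06 and 4.98), the gene of the Stra8 partner MEIOSIN, was assigned by the authors to Six5. Rec8, the meiotic cohesin gene, and Ccnd2 had none. Retinoic acid response genes of other tissues had 3 of 9, Meis1 (3.91 and 4.43), Hoxa5 (2.74 and 4.27) and Cdx1 (3.44 and 3.22), and Hoxb1 had none. As the Percoll fraction can hold other cells, short marker lists were counted the same way. Of spermatogonial markers 4 of 5 and of Sertoli markers 4 of 4 were called in both replicates. Leydig markers and meiotic prophase markers had 0 of 4 each. The share over all protein-coding genes was 24.0%. The peak near the Sertoli marker Amh was not in the reproducible set, and its nearest listed start site was that of Sf3a2. No RNA was measured, so peaks cannot be given to a cell type, and the part of other cells in the peaks at the retinoic acid genes was not tested.

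**Figure D5:**
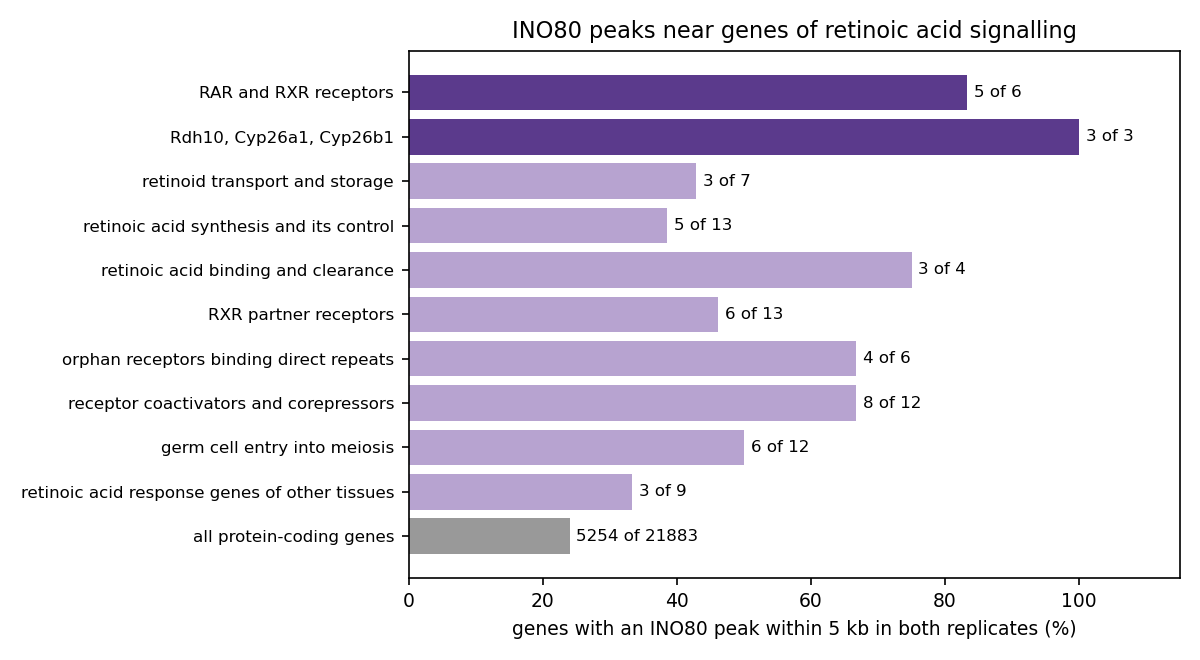
Share of genes in each list with an INO80 peak within 5 kb in both replicates, with the genes called of those listed beside each bar. The receptors (5 of 6) and the metabolism genes (3 of 3) stand at the top and all protein-coding genes (5254 of 21883) at the bottom, and the 8 pathway lists lie between, the lowest at 3 of 9 genes and the highest at 3 of 4.

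In the authors' deposited table of functional terms, 6 terms named retinoic acid and 1 had an adjusted p below 0.05. That term, cellular response to retinoic acid, held 20 genes at 2.61 times the expected share (adjusted p = 0.00504 in the authors' deposited table), Rara, Rarg and Cyp26a1 among them. The retinoic acid receptor signalling term held 7 genes, 4 of them Rara, Rarg, Rxra and Cyp26a1, at 3.30 times the expected share (adjusted p = 0.199 in the authors' deposited table). These terms were computed by the authors from genes near the same peaks, so they add nothing independent to the counts above. None of the 10 genes was among the 81 genes the authors selected near peaks or among their 143 curated meiotic genes.

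The reproducible peaks within 1 kb of a start site most like those of the receptors were found by the distance in log2 fold over the 2 replicates, among 2149 peaks. Nearest to the Rara peak were those of Spns2 (3.95 and 5.73) and Gm21992 (3.92 and 5.72). The Rarg peak had Tmeff1 (3.83 and 4.17) and Pkd2 (3.82 and 4.17), and the Rxra peak had Ankrd63 (2.87 and 4.71) and Foxc1 (2.87 and 4.79). For the enzymes these were Rtn4rl1 and Rasa3 (Rdh10), Fam89a and Kcng2 (Cyp26a1), and Gipc3 and Ccdc6 (Cyp26b1). With 2 values per peak, such likeness is a description of strength only.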

How the data were processed

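INO80 ChIP-seq peaks came from 2 libraries of synchronised spermatocytes. Per the submitters' processing notes, the tools were MACS2 2.2.7.1, deepTools 3.4.3, SAMtools 1.11, Picard 2.21.2, BWA and fastp, and the builds mm10 and GRCm38, with no role stated. Which control MACS2 used was not given in the sources used here. Each replicate's list holds, per peak, the authors' deposited score, fold enrichment (a ratio), −log10 p and −log10 q, with positions given here counted from 1. The functional term table holds the authors' deposited gene count, fold enrichment, p-value and adjusted p-value per term. Input libraries contribute only their deposited read numbers. Genes and promoter windows came from RefSeq tables of GRCm38.p6. The promoter table lacks many genes, which leaves nearest start sites incomplete.

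The members and lists were chosen with earlier results of these data known, so counts are descriptions without a test. Genes named are the 10 members and, per list, up to 4 with peaks in both replicates by mean fold and up to 2 without any peak in alphabetical order; 3 that the rule names are not reported here. The CpG limit of 0.6, the longest-fifth share and the motif counts were chosen after the peaks were seen. Peak assignment and motif search were tested on simulated data. Python 3.11.15, pandas 2.3.3 and SciPy 1.17.1 were used. Alternatives changed the distance, the q limit, the overlap and the replicates used.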

Additional observations from a re-analysis of the deposited data

How the results depend on the processing

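The count of the 10 retinoic acid genes with a peak in both replicates stayed within 1.5 times its value of 8 under every alternative but a −log10 q of at least 5. That limit left 4 genes in both replicates and 5 in replicate 1. It also left 16 of the 76 pathway genes. Counting from start sites left 24 of the 56 pathway genes that have one in the promoter table. The share of all protein-coding genes was 21.6% at 1 kb, 26.8% at 10 kb, 20.1% from start sites, 16.8% at a −log10 q of at least 3, 10.6% at 5, and 16.8% where replicate peaks had to overlap over 50% of each. Leaving out a replicate gave 26.0% to 35.7% of all genes, 38 to 47 pathway genes and 8 of the 10. No paired analysis was possible because the inputs have no peak lists and no result comes from a test between groups. Peaks were called at unequal depth and strength, so a gene with none is only below the caller's threshold.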
